A study of Homo sapiens with 4 samples.

Results

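The aldo-keto reductase genes AKR1C1, AKR1C2, AKR1C3 and AKR1C4 on chromosome 10 and AKR1B1 and AKR1B10 on chromosome 7 are described here in HCC1954 cells, a human breast cancer cell line with high ERBB2. These 6 genes were taken by gene symbol from a table of 58735 genes, and they were chosen by their measured fold changes in the same comparison that is described below, so their changes are given as values without a test. AKR1B15, AKR1A1 and the other genes of the superfamily are given separately.

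The measurement was RNA sequencing of total RNA, given as raw read counts per gene. The 2 shCON samples received a scrambled short hairpin RNA in a GIPZ lentiviral plasmid, and the 2 shZDHHC15 samples received GIPZ hairpins against ZDHHC15, a palmitoyl transferase that attaches fatty acids to proteins, so that the comparison asks which transcripts differ when ZDHHC15 is depleted. The sources describe the knockdown both as stable and as a transient transfection, and the number of hairpins and clones behind these samples was not given in the sources used here. No label says that samples of a group were separate cultures, so the errors and p-values measure the spread between these samples, which may be technical.

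The libraries held 17560982 to 19118704 counts, and 3 counts corresponded to 0.157 to 0.171 counts-per-million (CPM). ZDHHC15 had 17617 and 15716 counts in shCON and 0 and 0 in shZDHHC15. A hairpin usually leaves part of its target transcript, and what underlies the exact 0 in both shZDHHC15 samples was not tested. Epithelial identity was present in every library, with EPCAM between 4241 and 4977 counts in shCON and between 3773 and 4092 in shZDHHC15, and ERBB2 at 5760 ± 241 CPM in shCON and 4876 ± 225 CPM in shZDHHC15 (SD, n = 2).

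Aldo-keto reductases are cytosolic enzymes that use NADPH to reduce aldehydes and ketones to alcohols. The AKR1C enzymes act on steroid hormones, prostaglandins and aldehydes formed from oxidised lipids, and AKR1C1 inactivates progesterone, AKR1C2 inactivates dihydrotestosterone, AKR1C3 forms testosterone and prostaglandin F, and AKR1C4 serves bile acid synthesis in liver. AKR1B1 is aldose reductase, which turns glucose into sorbitol, and AKR1B10 reduces retinal and lipid aldehydes and is best known from intestinal epithelium and from tumours. AKR1C genes and AKR1B10 are known in many cell types as targets of NRF2, the transcription factor of the oxidative stress response that KEAP1 holds in check.

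The 4 AKR1C genes lie side by side on chromosome 10 (GRCh38, GENCODE 29): AKR1C1 (ENSG00000187134) at 4963253 to 4983283 on the plus strand, AKR1C2 (ENSG00000151632) at 4987400 to 5018031 on the minus strand, AKR1C3 (ENSG00000196139) at 5035354 to 5107686 on the plus strand and AKR1C4 (ENSG00000198610) at 5195462 to 5218949 on the plus strand. AKR1B1 (ENSG00000085662) lies on chromosome 7 at 134442350 to 134459284 on the minus strand, and AKR1B10 (ENSG00000198074) at 134527592 to 134541408 on the plus strand. Each value below covers all annotated exons of the gene. No exon of these 6 genes overlaps an exon of another gene in that annotation.

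How far the paralogs can be told apart by short reads sets how their separate values can be read. The coding sequences of the AKR1C genes are all 972 bases long and lie in 9 exons, and those of AKR1B1 and AKR1B10 are 951 bases long and lie in 10 exons. The stretch from base 73 to base 162 of the coding sequence, counted from the A of the start codon in the GENCODE 29 transcripts, is shown because it holds 10 of the 19 coding differences between AKR1C1 and AKR1C2. Capitals mark the bases that differ from AKR1C1.

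AKR1C1: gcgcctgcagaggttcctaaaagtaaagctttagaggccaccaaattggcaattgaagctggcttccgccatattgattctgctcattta
AKR1C2: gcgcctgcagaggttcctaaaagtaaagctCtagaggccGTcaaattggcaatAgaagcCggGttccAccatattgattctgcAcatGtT
AKR1C3: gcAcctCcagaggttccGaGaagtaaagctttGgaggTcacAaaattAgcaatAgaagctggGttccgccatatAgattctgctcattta
AKR1C4: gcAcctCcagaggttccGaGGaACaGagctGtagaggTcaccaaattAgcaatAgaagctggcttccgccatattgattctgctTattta

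Within these 90 bases AKR1C2 differs from AKR1C1 at 10 positions, AKR1C3 at 11 and AKR1C4 at 13. Over the 969 aligned coding bases AKR1C1 and AKR1C2 differ at only 19 positions (98.0% identity), and the longest run without a difference is 186 bases. AKR1C3 is 91.4% identical to AKR1C1 and 91.0% identical to AKR1C2, yet it shares an unbroken run of 171 bases with AKR1C2. AKR1B1 and AKR1B10 are 76.7% identical to each other, and AKR1B10 is 92.3% identical to its neighbour AKR1B15. Of all 100-base windows of the coding sequence, 20.7% in AKR1C1, 26.4% in AKR1C2, 9.77% in AKR1C3, 0.69% in AKR1C4 and 3.53% in AKR1B10 occur without a mismatch in a transcript of another gene, and none do in AKR1B1. The handling of reads that map to several genes was not given in the sources used here, so the split of counts between AKR1C1 and AKR1C2, and to a lesser extent AKR1C3, is uncertain, and sums over paralogs are given beside the single genes.

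AKR1C1 and AKR1C2 also share nearly the whole promoter sequence. RefSeq (GRCh38.p14) lists 300-base promoter windows, 250 bases before to 50 bases after a start, for 5 of the 6 genes (none for AKR1B10). The windows of AKR1C1 (chr10:4963165-4963464, plus strand) and AKR1C2 (chr10:5003808-5004107, minus strand) are shown because these genes were the most changed of the set. Capitals mark the bases that differ between them or have no partner in the alignment.

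AKR1C1: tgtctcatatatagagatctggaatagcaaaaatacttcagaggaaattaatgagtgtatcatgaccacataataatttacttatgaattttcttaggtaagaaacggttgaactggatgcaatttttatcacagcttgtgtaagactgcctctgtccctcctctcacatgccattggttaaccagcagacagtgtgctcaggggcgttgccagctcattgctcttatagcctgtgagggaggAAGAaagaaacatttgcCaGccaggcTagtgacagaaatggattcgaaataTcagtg
AKR1C2: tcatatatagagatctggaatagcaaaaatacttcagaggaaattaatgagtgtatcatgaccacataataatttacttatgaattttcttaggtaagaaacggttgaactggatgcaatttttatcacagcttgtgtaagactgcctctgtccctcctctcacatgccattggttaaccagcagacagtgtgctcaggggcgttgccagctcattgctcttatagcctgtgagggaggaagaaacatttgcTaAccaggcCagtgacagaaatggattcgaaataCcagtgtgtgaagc

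They aligned over 296 columns with 4 substitutions and a gap of 4 bases. The windows of AKR1C3 were 78.0% and 79.5% identical to that of AKR1C1, and the window of AKR1C4 was 69.6% identical. Matches were searched on both strands for the core of the antioxidant response element bound by NRF2 (TGACNNNGC), for the AP-1 motif (TGANTCA) and for the TEAD motif (GGAATG). None of the listed windows of the 5 genes held TGACNNNGC or TGANTCA, which occur in 13.3% and 7.71% of all 35116 RefSeq promoter windows. GGAATG occurs in 14.0% of all windows and once among these genes, in the AKR1C3 window at chr10:5094164-5094463 on the plus strand. That match begins at base 279 of the window, 28 bases after the start around which the window is set. A match or its lack says only which letters these windows hold.

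Transcripts of AKR1C1, AKR1C2, AKR1C3, AKR1B1 and AKR1B10 were more abundant in shZDHHC15 than in shCON, by 2.36-fold for AKR1B1 to 39.2-fold for AKR1C2. AKR1C4 was at the limit of detection in both groups. The genes were chosen by these values, so nothing is read from how many of them rose. AKR1C1 had 284 and 254 counts in shCON and 7148 and 6082 counts in shZDHHC15. That is 15.3 ± 0.368 CPM against 347 ± 52.4 CPM (SD, n = 2). The fitted change was 22.6-fold (4.50 on the log2 scale, SE 0.130). In these bulk samples more cells with a transcript and more RNA per cell cannot be told apart. It was the most abundant of the 6 genes by counts in both groups.

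AKR1C2 had the lowest AKR1C signal in shCON among the 3 detected genes and the largest relative change. Its counts were 70 and 57 in shCON and 2995 and 2421 in shZDHHC15, or 3.61 ± 0.326 and 142 ± 26.5 CPM. The log2 fold change was 5.29 (SE 0.171).

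AKR1C3, the enzyme of androgen and prostaglandin F formation, had 123 and 118 counts in shCON and 1534 and 1348 in shZDHHC15. Its level went from 6.87 ± 0.176 to 75.5 ± 9.70 CPM, a log2 fold change of 3.46 (SE 0.144) or 11.0-fold. It thus started above AKR1C2 in counts and ended below it. AKR1C4, the liver form, had 0 and 0 counts in shCON and 0 and 2 in shZDHHC15. No value of AKR1C4 exceeded 3 counts, so no fold is given and it did not enter the fit.

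AKR1B10 had 82 and 60 counts in shCON and 853 and 766 in shZDHHC15, which is 4.03 ± 0.665 against 42.4 ± 4.80 CPM. Its log2 fold change of 3.39 (SE 0.168), or 10.5-fold, differed from that of AKR1C3 by less than the SE of either. AKR1B1, aldose reductase, had 53 and 34 counts in shCON and 109 and 115 in shZDHHC15, or 2.46 ± 0.630 against 5.86 ± 0.00324 CPM. Its log2 fold change of 1.24 (SE 0.248) was the smallest of the 5.

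**Figure D1:**
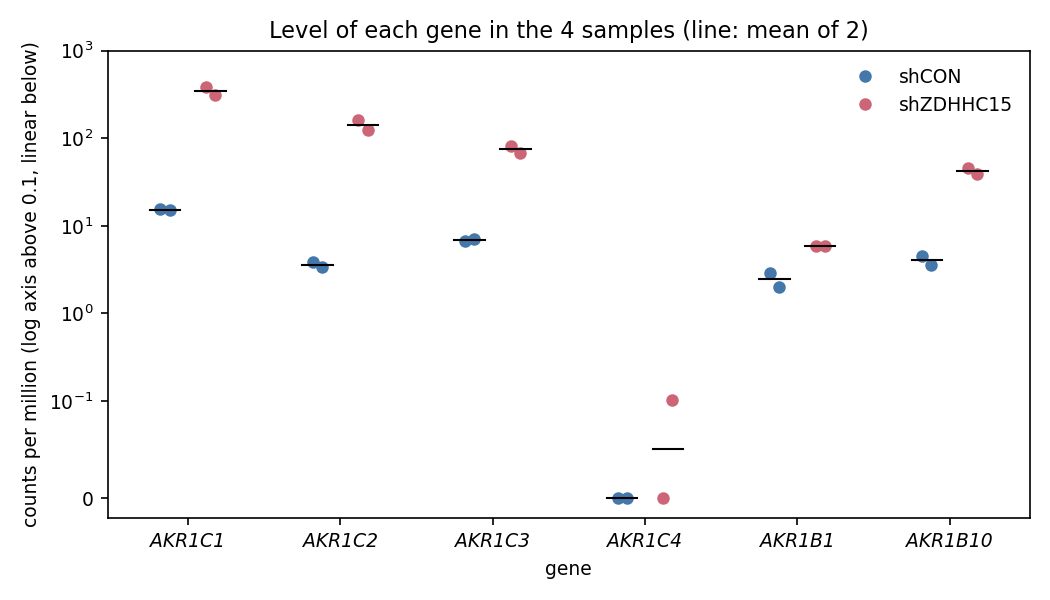
Level of each gene in the 4 samples, in CPM on an axis that is logarithmic above 0.1 and linear below (blue points shCON, red points shZDHHC15, black line the mean of 2 samples). Fitted changes run from 2.36-fold in AKR1B1 to 39.2-fold in AKR1C2, while AKR1C4 stays at 0 to 2 counts.

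The order of the log2 fold changes was AKR1C2, AKR1C1, AKR1C3 with AKR1B10, and AKR1B1. Among all 15817 genes tested, ranked from the largest increase, AKR1C2 stood at place 21, AKR1C1 at 45, AKR1C3 at 105, AKR1B10 at 111 and AKR1B1 at 947. The 5 genes that passed the filter on low counts had at least 34 counts in every sample. Over all tested genes 21.7% were called higher and 20.3% lower at an adjusted p of 0.05, and nothing is read from the calls of these 5 genes, since the same values chose them.

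In sum the 6 genes took 612 and 523 counts in shCON and 12639 and 10734 in shZDHHC15, or 33.1 and 29.8 against 694 and 561 CPM of the unscaled library totals. Counts that cannot be assigned between AKR1C paralogs with certainty can still be summed over AKR1C1 to AKR1C4. This sum was 477 and 429 in shCON and 11677 and 9853 in shZDHHC15, a log2 fold change of 4.45 (SE 0.126). The sum of AKR1B10 and AKR1B15 was 141 and 116 in shCON and 1135 and 1088 in shZDHHC15, a log2 fold change of 2.99 (SE 0.138) or 7.95-fold.

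The make-up of the AKR1C signal differed between the groups. AKR1C2 made up 14.7% and 13.3% of the AKR1C1 to AKR1C3 counts in shCON and 25.6% and 24.6% in shZDHHC15. AKR1C3 made up 25.8% and 27.5% in shCON and 13.1% and 13.7% in shZDHHC15. AKR1C1 held the largest share, at 59.4% ± 0.234 in shCON and 61.5% ± 0.372 in shZDHHC15 (SD, n = 2). The shares rest on deposited counts, and reads shared between AKR1C1 and AKR1C2 could have been placed with either.

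AKR1C2 gained share and AKR1C3 lost share on every length scale used. Per kilobase of the deposited gene length, which is the summed exon length, AKR1C3 held 39.7% ± 1.57 of the signal in shCON and 21.4% ± 0.600 in shZDHHC15. Per kilobase of the longest coding transcript (6705, 3756 and 1807 bases for AKR1C1, AKR1C2 and AKR1C3) AKR1C3 was the largest component in shCON at 54.0% ± 1.72, and AKR1C1 was the largest in shZDHHC15 at 39.4% ± 0.124. AKR1C2 went from 13.6% ± 1.14 to 28.7% ± 0.951 on the same scale and stayed below AKR1C3, which was at 31.9% ± 0.827 in shZDHHC15. The order of the shares thus depended on the length used, since AKR1C2 stood above AKR1C3 in shZDHHC15 in raw counts and per kilobase of deposited gene length.

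**Figure D2:**
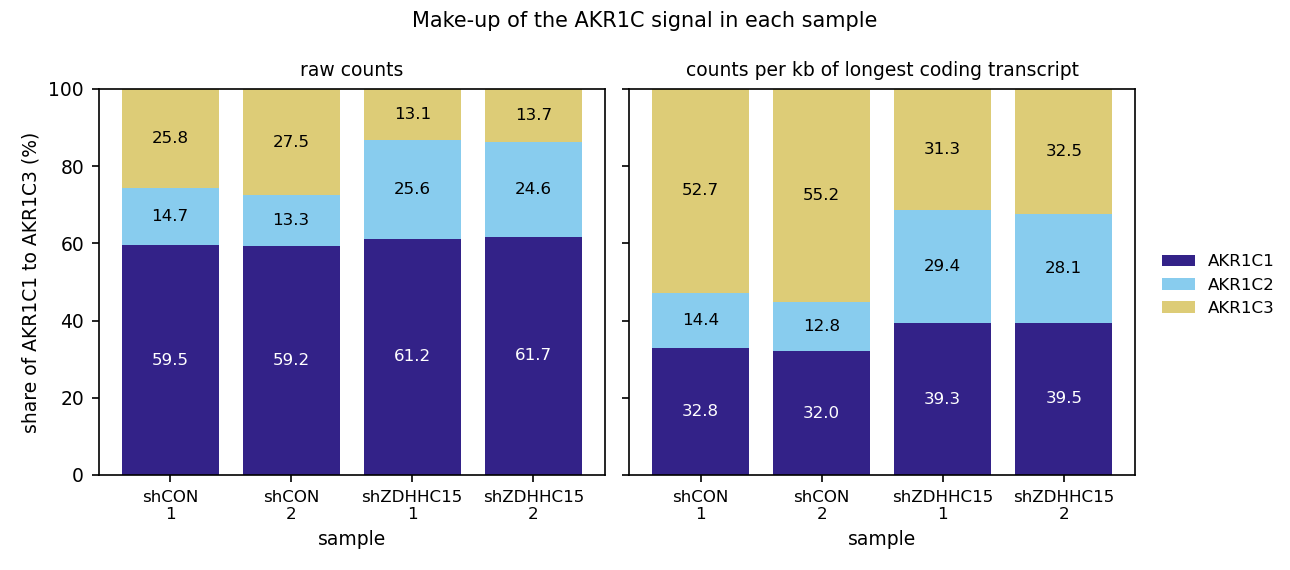
Share of AKR1C1, AKR1C2 and AKR1C3 (colours) in their summed signal in each of the 4 samples, in percent, from raw counts (left) and from counts per kilobase of the longest coding transcript (right). The AKR1C2 share is larger in the shZDHHC15 samples and the AKR1C3 share smaller, a direction that no choice of length can alter. AKR1C3 leads the shCON samples only on the right.

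Levels of different genes were compared per kilobase of deposited gene length. In shCON the order was AKR1B10 (2.31 ± 0.382 CPM per kb), AKR1C1 (1.75 ± 0.0419), AKR1C3 (1.52 ± 0.0388), AKR1B1 (0.673 ± 0.172) and AKR1C2 (0.559 ± 0.0504), where the values of AKR1B1 and AKR1C2 in single samples overlapped. In shZDHHC15 it was AKR1C1 (39.6 ± 5.97 CPM per kb), AKR1B10 (24.3 ± 2.75), AKR1C2 (22.0 ± 4.11), AKR1C3 (16.7 ± 2.14) and AKR1B1 (1.60 ± 0.000886). The single values of AKR1B10 and AKR1C2, at 26.3 and 22.4 against 24.9 and 19.1 CPM per kb, overlapped. Long untranslated ends count fully in this length, and the order depended on it. Per kilobase of coding length AKR1C1 (15.8 ± 0.378 CPM per kb) and AKR1C3 (7.07 ± 0.181) stood above AKR1B10 (4.24 ± 0.700) in shCON, and AKR1C2 (146 ± 27.3 CPM per kb) stood above AKR1B10 (44.6 ± 5.05) in shZDHHC15. AKR1C1 was first and AKR1B1 last in shZDHHC15 among the 5 genes on either length.

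The genes around both clusters did not share the large increase, apart from AKR1B15. Within 500 kb of the 6 genes the table holds 44 other genes, 32 on chromosome 10 and 12 on chromosome 7, of which 6 and 6 passed the filter on low counts. Of these 12 tested genes, 4 were higher (33.3%, against 21.7% of all genes), 2 were lower (16.7%, against 20.3%) and 6 did not pass the test, with a median log2 fold change of 0.05 against 0.02 over all tested genes (edgeR quasi-likelihood test, Benjamini-Hochberg adjustment over all 15817 genes, here and below).

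AKR1B15, which encodes a reductase close to AKR1B10 and follows it on the same strand, had 59 and 56 counts in shCON and 282 and 322 in shZDHHC15. It rose 4.81-fold (log2 fold change 2.27, SE 0.187, adjusted p = 2.74e-07), and some of its reads cannot be told apart from those of AKR1B10. On the far side of it BPGM, which makes bisphosphoglycerate, rose by a log2 fold change of 0.74 (SE 0.107, adjusted p = 6.94e-05). SLC35B4, a nucleotide sugar transporter gene on the other side of AKR1B1, had a log2 fold change of -0.01 (adjusted p = 0.962). EXOC4, CALD1 and AGBL3 had values of 0.09, -0.17 and 0.07 with adjusted p of 0.541, 0.278 and 0.878.

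On chromosome 10 the nearest tested gene before AKR1C1 was AKR1E2, with 45 and 58 counts in shCON and 58 and 50 in shZDHHC15 (log2 fold change -0.06, adjusted p = 0.895). The long noncoding RNA MANCR, further out, fell by 2.04 on the log2 scale (adjusted p = 0.00235) from 26 and 35 to 7 and 9 counts. Beyond AKR1C4, NET1 had a log2 fold change of 0.04 (adjusted p = 0.761). AL365356.5, another long noncoding RNA, fell by 1.94 (adjusted p = 0.00068), while ASB13 and FAM208B rose by 0.67 (adjusted p = 0.0128) and 0.44 (adjusted p = 0.0102). FAM208B shares 435 exon bases with an antisense gene. AL391427.1, an antisense RNA gene inside the AKR1C2 span, was too low for the fit, with 0 and 1 counts in shCON and 10 and 5 in shZDHHC15.

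**Figure D3:**
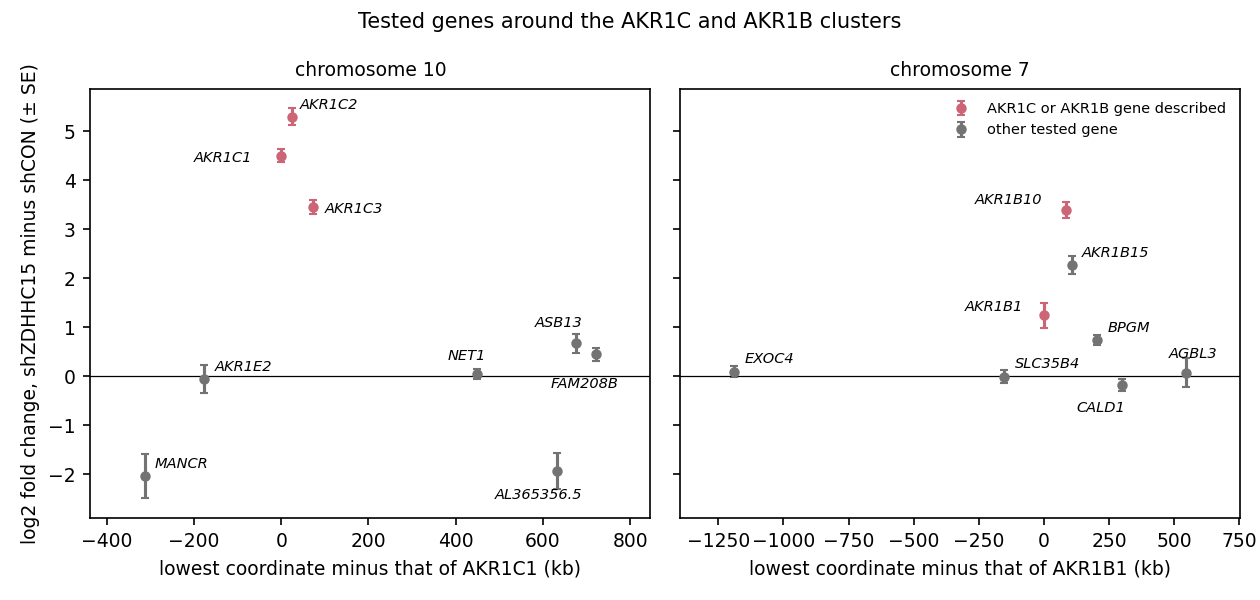
Log2 fold change (shZDHHC15 minus shCON, error bars SE) of each tested gene within 500 kb of the clusters, against the distance in kb between its lowest coordinate and that of AKR1C1 (left) or AKR1B1 (right). AKR1C1, AKR1C2 and AKR1C3 lie at 3.46 to 5.29, and the 6 other genes of chromosome 10 at 0.67 or below.

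Of 11 other aldo-keto reductase genes 7 were tested, 1 was higher (AKR1B15) and 1 was lower (14.3% each, against 21.7% and 20.3% of all genes), with a median log2 fold change of -0.06 against 0.02 over all genes. The lower gene was AKR7A2, an aflatoxin aldehyde reductase, which fell by 0.32 (SE 0.109, adjusted p = 0.0263) from 62.9 ± 6.35 to 50.2 ± 0.235 CPM. This call was lost without shCON replicate 2, without either shZDHHC15 replicate, with scaling by library size only and without the filter on low counts, each of which gave 0 lower genes in this list.

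AKR1A1, the general aldehyde reductase and by counts the most abundant other gene of the superfamily, had 1132 and 1185 counts in shCON and 1183 and 1165 in shZDHHC15. Its groups overlapped (log2 fold change -0.11, adjusted p = 0.451). AKR1D1, which reduces the steroid A-ring in liver, was near the floor with 10 and 9 against 16 and 13 counts (0.48, adjusted p = 0.463). The potassium channel subunit genes KCNAB2 and KCNAB3 had log2 fold changes of 0.42 (adjusted p = 0.067) and -0.39 (adjusted p = 0.389). AKR7A3, AKR7L and KCNAB1 had at most 14 counts in any sample and AKR1C8P had 0 in all 4, and these were not tested.

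Among 31 other enzymes that handle carbonyls and aldehydes, 26 were tested, 8 were higher (30.8%, against 21.7% of all genes), 5 were lower (19.2%, against 20.3%) and 13 did not pass the test, with a median log2 fold change of 0.17 against 0.02 over all genes. DHRS9, a retinol and steroid dehydrogenase, rose from 55 and 38 counts to 528 and 444 (log2 fold change 3.26, SE 0.203, adjusted p = 1.27e-08). ALDH3B2, an aldehyde dehydrogenase, rose from 38 and 38 to 434 and 291 counts (3.13, adjusted p = 2.82e-07). ALDH1A1, which oxidises retinal to retinoic acid, rose from 8 and 8 to 59 and 56 counts (2.70, adjusted p = 6.99e-05). DHRS2 fell by 3.05 (adjusted p = 1.12e-07) from 220 and 207 to 31 and 25 counts, and mitochondrial ALDH1B1 fell by 1.49 (adjusted p = 8.11e-08).

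Of 44 listed partner enzymes of steroid, prostaglandin and retinoid metabolism 33 were tested, 16 were higher (48.5%, against 21.7% of all genes), 3 were lower (9.09%, against 20.3%) and 14 did not pass the test, with a median of 0.47. PTGS2, the cyclooxygenase that supplies the prostaglandin H that AKR1B1 and AKR1C3 can convert, rose from 596 and 493 counts to 3385 and 3340 (log2 fold change 2.51, SE 0.107, adjusted p = 1.98e-10). HPGD, which inactivates prostaglandins, rose from 11 and 9 to 151 and 100 counts (3.51, adjusted p = 4.3e-06).

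CYP26A1, which degrades retinoic acid, rose from 13 and 19 to 149 and 91 counts (2.78, adjusted p = 3.19e-05), and shares 750 exon bases with a transcript on the same strand. HSD17B4, a peroxisomal enzyme of fatty acid and steroid oxidation, rose from 8 and 12 to 78 and 45 counts (2.48, adjusted p = 0.000405). HSD3B1, which forms progesterone and androstenedione, was lower with 3 and 1 counts against 11 and 13 (adjusted p = 0.00931). With 3 or fewer counts in shZDHHC15 no fold is given for HSD3B1.

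Of 20 listed genes around the supply of NADPH, the cofactor of all 6 reductases, 16 were tested. Of these, 10 were higher (62.5%, against 21.7% of all genes) and 2 were lower (12.5%, against 20.3%), with a median log2 fold change of 0.34. Both lower genes and some higher ones encode pentose phosphate pathway enzymes that do not form NADPH themselves. The shares are thus not those of NADPH-forming enzymes alone. PGD, an oxidative enzyme of the pentose phosphate pathway, rose 2.42-fold (log2 fold change 1.27, SE 0.101, adjusted p = 1.75e-07), from 155 ± 8.85 to 375 ± 41.5 CPM. IDH1, the cytosolic isocitrate dehydrogenase, rose 2.04-fold (1.03, SE 0.119, adjusted p = 8.97e-06). The lower genes were PGLS (-0.44, adjusted p = 0.00483) and RPIA (-0.38, adjusted p = 0.0217). Without shZDHHC15 replicate 1 the count of higher genes was 6 and that of lower genes 1. Leaving out shZDHHC15 replicate 2 gave 0 lower genes, and 1 was lower when shCON replicate 2 was left out, with scaling by library size only and without the filter on low counts.

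The list of NRF2 pathway and target genes overlaps the lists above, with 5 NADPH genes and 4 carbonyl enzymes in common. Of its 42 genes 40 were tested, 29 were higher (72.5%, against 21.7% of all genes), 3 were lower (7.5%, against 20.3%) and 8 did not pass the test, with a median log2 fold change of 0.49. All 5 NADPH genes in common were among those higher, and of the 11 tested NADPH genes outside the NRF2 list 5 were higher and 2 lower. Of the 4 carbonyl enzymes in common 2 were tested and both were higher. Of the 24 tested carbonyl enzymes outside the NRF2 list 6 were higher and 5 lower. The transporter genes ABCC2 and ABCC3 rose 8.19-fold (adjusted p = 8.88e-08) and 5.00-fold (adjusted p = 1.45e-06), from 27 and 27 to 234 and 250 counts and from 36 and 34 to 193 and 189 counts. GPX2, a glutathione peroxidase, rose 5.65-fold (adjusted p = 7.33e-05), and PIR, a nuclear iron-binding protein gene, rose 5.28-fold (adjusted p = 1.24e-05).

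NFE2L2, which encodes NRF2, had 1576 and 1219 counts in shCON and 1777 and 1889 in shZDHHC15, a log2 fold change of 0.27 (SE 0.107) that missed the threshold (adjusted p = 0.0529), and 1054 of its exon bases overlap a transcript on the same strand. KEAP1, its inhibitor, fell by 0.64 on the log2 scale (SE 0.114, adjusted p = 0.000433), from 52.6 ± 4.79 to 33.9 ± 1.10 CPM. MAFF, a small MAF partner, fell by 1.03 (adjusted p = 3.45e-06). SLC7A11, GCLM and GCLC, which serve glutathione synthesis, rose by 1.41, 1.14 and 1.12 (adjusted p = 3.41e-05, 6.31e-07 and 8.76e-07).

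Of 14 listed genes for receptors of steroid hormones, retinoids and prostaglandin F 11 were tested, 5 were higher (45.5%, against 21.7% of all genes), 1 was lower (9.09%, against 20.3%) and 5 did not pass the test, with a median of 0.56. ESR1, an estrogen receptor gene, rose 2.14-fold (adjusted p = 0.000213) from 161 and 103 to 308 and 305 counts. ESR2 rose by a log2 fold change of 1.38 (SE 0.440, adjusted p = 0.0207) at 10 and 10 against 33 and 24 counts.

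Among the retinoid receptor genes RXRA rose by 0.80 (adjusted p = 2.84e-05) and RARA by 0.67 (adjusted p = 0.000178), and both had at least 858 counts in every sample. RARB, RARG and RXRB had log2 fold changes of -0.19, -0.20 and -0.11 with adjusted p of 0.733, 0.147 and 0.448. NR3C1, the glucocorticoid receptor gene, fell by 0.49 (adjusted p = 0.0135), with 475 and 434 counts against 297 and 411, and without shZDHHC15 replicate 1 no receptor gene was called lower. NR3C2 and PPARG had values of -0.02 (adjusted p = 0.944) and 0.56 (adjusted p = 0.447). PGR, the progesterone receptor gene, had 1 count in all 4 samples together, RXRG had 0, and PTGFR, the prostaglandin F receptor gene, had 1 to 5 counts per sample, and none of these was tested.

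The genes whose pattern over the 4 samples was nearest to AKR1C1 were IFIT1, IFIT3, CMPK2, IFI44 and TNFSF10, at Euclidean distances of 0.0517 to 0.211 between gene-centred log2 CPM values among 15812 other genes. IFIT1 had 225 and 195 counts in shCON and 5697 and 4657 in shZDHHC15, close in fold to AKR1C1. The paralogs AKR1C2 and AKR1C3 were further from AKR1C1 than these 5 genes, at 0.771 and 1.05. Nearest to AKR1B10 were APOL1, DHRS9, MXRA5, LAMP3 and USP18, at 0.126 to 0.182, with AKR1C3 at 0.278. With 4 samples in 2 groups these distances reflect mainly the size of the group difference.

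Other markers moved between the same groups. KRT8 and KRT18, keratins of luminal epithelium whose annotated exons overlap, fell by 1.62 (adjusted p = 4.87e-09) and 1.58 (adjusted p = 7.76e-09) on the log2 scale, EPCAM fell by 0.35 (adjusted p = 0.00608) and ERBB2 by 0.24 (adjusted p = 0.0332), KRT19 rose by 0.44 (adjusted p = 0.0115), and CDH1 had a value of -0.05 (adjusted p = 0.706). Of 8 markers of leukocytes, endothelium, fibroblasts and hepatocytes, CD3E was at 0 in every sample and PTPRC, COL1A2, DCN and ALB had at most 5 counts. PECAM1, an endothelial adhesion molecule gene, had 75 and 56 counts in shCON and 666 and 405 in shZDHHC15 and rose 7.53-fold (adjusted p = 5.43e-07), and COL1A1 rose 1.56-fold (adjusted p = 0.0232). The part of other cells in the values above was not tested, and AKR1C4 and ALB, both abundant in liver, were at 2 counts or fewer in every sample.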

How the data were processed

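RNA was sequenced in 2 shCON and 2 shZDHHC15 samples of HCC1954. The deposited table, made by the authors, holds raw counts per gene for 58735 genes, all matching GENCODE 29. The submitters' processing notes name HISAT2, StringTie, SAMtools and hg38, but the counting tool, the use of strand and the treatment of reads with several hits were not given in the sources used here. Groups came from the sample titles. Counts of 15817 genes passing filterByExpr (minimum count 10) were scaled by TMM and tested with edgeR's quasi-likelihood test (edgeR 4.0.16, R 4.3.3), with Benjamini-Hochberg adjustment and a threshold of 0.05. The fit was also run on simulated data in which far fewer genes changed than were called here, so that run does not check these calls. Exact permutation of 2 against 2 samples cannot go below p = 0.333 and was not used. Replicates differed by more than counting noise (chi-square per degree of freedom 8.32 in shCON and 6.79 in shZDHHC15). CPM values use TMM-scaled library sizes, except where unscaled totals are named. Fold changes are fitted values.

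The genes and lists were chosen with earlier results of these data known. The text names all 6 genes, the other aldo-keto reductase and receptor genes, NFE2L2 and KEAP1, tested genes within 500 kb, the 5 nearest genes to AKR1C1 and to AKR1B10 (log2 CPM with prior count 2), and from each list up to 4 genes in each direction with an absolute log2 fold change of at least 1. PGLS, RPIA, SLC7A11, GCLM, GCLC and AL391427.1 were added after their values were seen, and some list genes are not reported here by name. Exons of NFE2L2, IDH1, PGLS, CYP26A1, GCLC, SLC7A11, HSD17B4, ESR1, ESR2, RARA, RARB, RXRB, PGR, KCNAB1, KCNAB2, KCNAB3, CDH1, ERBB2, KRT8, KRT18, CMPK2, MANCR and FAM208B overlap those of another gene, so their counts are less certain. Coding sequences were read from GENCODE 29 transcripts and promoters from RefSeq, and aligned with Biopython 1.88. Alternatives were DESeq2 1.42.0, other scalings and filters, the earlier form of the quasi-dispersion, a replicate block and leaving out each sample. Lengths of transcripts and coding sequences for the AKR1C shares were added as alternatives after the data were seen.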

Additional observations from a re-analysis of the deposited data

How the results depend on the processing

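When each sample was left out in turn, the log2 fold changes were 4.34 to 4.64 for AKR1C1, 5.09 to 5.47 for AKR1C2, 3.32 to 3.58 for AKR1C3, 1.00 to 1.51 for AKR1B1 and 3.22 to 3.54 for AKR1B10. These genes were chosen by these values, so the ranges describe them and support nothing further. No result reversed. Where an arm was left with 1 sample, that sample was assumed to vary like the others. Counts of genes depended more on the setting. Without the filter on low counts 2282 genes were higher instead of 3427, 0 other aldo-keto reductase genes, 1 NADPH gene and 0 receptor genes were lower, and 2 genes within 500 kb were higher. With scaling by library size only 2 other aldo-keto reductase genes were higher, 0 were lower and 1 NADPH gene was lower, and with at least 10 counts in every sample 1 gene within 500 kb was lower. Leaving out 1 sample at a time gave 1 to 2 other aldo-keto reductase genes higher and 0 to 1 lower, 6 to 12 NADPH genes higher and 0 to 2 lower, and 0 to 2 receptor genes lower. These causes were not tested. The labels give the groups the same replicate numbers, but same-numbered samples hardly deviated together. Over the 15817 tested genes, deviations from the group mean had a correlation of 0.0344 between shCON 1 and shZDHHC15 1. With 2 samples a group the other pair mirrors this one and adds no further value. With the replicate block 3723 genes were higher and 3502 lower, and the AKR1C2 value was 5.29 (SE 0.126). With 2 samples a group and read sharing between paralogs, small differences between AKR1C genes are not resolved. Genes that did not pass the filter on low counts were not tested, though some tested genes had under 10 counts in single samples.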
